A study of Mus musculus with 3 samples.

Results

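Selenoproteins are proteins that carry selenocysteine, and the data described here are the ribosome footprints of 10 mouse selenoprotein genes, Selenow, Selenot, Selenok, Selenos, Selenof, Selenom, Selenop, Gpx1, Gpx4 and Txnrd1. The genes were chosen by name, and each was followed through its longest transcript. They are 10 of 20808 genes with a counted transcript that has both UTRs and a coding sequence (CDS). In ribosome profiling, pieces of mRNA shielded from nuclease by a ribosome are sequenced, so that read density along an mRNA reflects where ribosomes sat. Primary cortical neurons, cultured from the embryonic cortex of CD-1 mice, were left untreated (WT), given cycloheximide for 2 min (Chx), or given harringtonine for 2 min and then a cycloheximide pulse (Harr). Cycloheximide arrests elongating ribosomes, and harringtonine holds ribosomes at the start codon while those already elongating run on. These treatments come from the titles and treatment labels, while the description labels of the same libraries name input or pulldown fractions instead. There is 1 library per treatment, made from 3 pooled dishes, and cycloheximide (100 μg per ml) was present in every library's buffers, those of WT included. With 1 library per treatment no difference between treatments has a replicate check, no p-value is given, and every standard error (SE) and interval below covers counting error only.

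In the mRNAs of selenoproteins a UGA codon, which elsewhere ends translation, is read as selenocysteine. Recoding needs a hairpin in the 3′ UTR, the SECIS element, the protein SECISBP2 that binds it, the elongation factor EEFSEC and a dedicated tRNA. A ribosome that reaches the UGA can either insert selenocysteine and go on or terminate there, so that coding sequence after the UGA is translated only by ribosomes that passed it. In brain, selenoproteins include the glutathione peroxidases, which reduce peroxides, thioredoxin reductases, and a group of small proteins of the endoplasmic reticulum.

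The annotated selenocysteine codons are shown here because the before and after comparison of the members is placed by them, at the borders of the coding segments around the first UGA. Each line gives the bases around the first UGA of the longest transcript from GENCODE M21 transcripts (mm10), 5′ to 3′ with T for U, up to 12 bases on either side within the CDS, and the capitals mark the recoded UGA.
Gpx1, codon 47 of 201: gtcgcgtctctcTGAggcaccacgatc
Gpx4, codon 129 of 253: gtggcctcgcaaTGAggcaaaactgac
Txnrd1, codon 612 of 613: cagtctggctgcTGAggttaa
Selenow, codon 13 of 88: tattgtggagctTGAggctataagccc
Selenot, codon 49 of 195: atttgtgtatccTGAgggtaccggcgg
Selenof, codon 93 of 162: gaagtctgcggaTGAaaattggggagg
Selenom, codon 48 of 145: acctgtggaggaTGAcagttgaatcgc
Selenok, codon 92 of 94: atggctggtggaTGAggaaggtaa
Selenos, codon 189 of 190: tcatctggcggcTGAaactaa
Selenop, codon 59 of 380: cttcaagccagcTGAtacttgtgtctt
The base after the UGA was G in 6 of the 10 genes, A in 2, C in 1 and T in 1. In Txnrd1, Selenok and Selenos the regular TAA stop followed within 2 codons of the UGA and lies inside the printed bases. Selenop, which encodes the plasma protein that carries selenium between tissues, had 10 annotated selenocysteine codons, and the other 9 genes had 1 each.

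Aligned reads numbered 35722483 (Chx), 9754412 (Harr) and 30219197 (WT), and 3 counts correspond to 0.0840, 0.308 and 0.0993 reads per 1000000. Harr, the shallowest library, is the least precise. The summed CDS level of 5 neuron markers was 3529 to 3949 reads per 1000000, against 78.8 to 213 for 4 astrocyte markers, 1.44 to 2.80 for 4 microglia markers and 2.15 to 6.52 for 4 oligodendrocyte markers, with Mog and Mobp at 0 in all 3 libraries. All 4 sums were lowest in Harr, as were 4 of the 5 neuron markers, all but Map2, on a scale on which the median of all genes is lower in Harr too. Their part in the differences of the 10 genes between libraries was not tested. In such pooled cultures, fewer cells that make an mRNA and less of it per cell cannot be told apart.

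All 10 genes were translated in the cultures, over a range of more than 100-fold in WT on the scale of reads per kilobase and 1000000 library reads (RPKM). Among the endoplasmic reticulum proteins, Selenok, a membrane protein of that compartment, had the highest CDS level, with 273 RPKM in Chx, 253 in Harr and 360 in WT. Selenof, which associates with the glycoprotein folding sensor, had 191, 69.0 and 196 RPKM in the same order. Selenot, a thioredoxin-like membrane protein, had 134, 86.1 and 130 RPKM. Selenom, a thioredoxin-like protein of the lumen, had 60.8, 41.2 and 86.1 RPKM, and Selenos, a part of the machinery that removes misfolded proteins, had 55.0, 29.2 and 49.5 RPKM. All 5 genes were lowest in Harr on this scale, on which the median of all genes is lower in Harr too. On the scale of a gene's share of all CDS reads, Selenok was higher in Harr than in Chx, at 0.44 (SE 0.06) on the log2 scale, and Selenom was at −0.01 (SE 0.12).

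Of the enzymes, Gpx4, which reduces lipid peroxides in membranes, had a CDS level of 81.6 RPKM in Chx, 37.7 in Harr and 88.5 in WT. Gpx1, the cytosolic glutathione peroxidase, had 49.6, 40.9 and 56.7 RPKM. Txnrd1, the cytosolic thioredoxin reductase, had 31.8, 26.0 and 24.5 RPKM. The order Gpx4, Gpx1, Txnrd1 held in Chx and WT, and in Harr Gpx1 and Gpx4 differed by less than their counting error. On its most-read transcript Gpx4 had 118, 60.1 and 120 RPKM, above Gpx1 in Harr too. Selenow, a small redox protein abundant in brain and muscle, had 75.7 RPKM in Chx, 215 in Harr and 200 in WT, so that its place moved from the fifth of the 10 genes in Chx to the second in Harr and WT. Selenop was the lowest of the 10 in every library, at 3.09, 3.50 and 2.75 RPKM. Neighbours in this order that differed by less than their counting error were Gpx4 and Selenow in Chx, Selenom with Gpx1, Gpx1 with Gpx4 and Selenos with Txnrd1 in Harr, and Selenow with Selenof and Gpx4 with Selenom in WT. Beside these levels, on which 5′ UTR reads count in the library total, the median of all genes was −0.60 for Harr over Chx and −0.51 for Harr over WT on the log2 scale.

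Reads were assigned by alignment, and some of these mRNAs have near-identical processed pseudogenes. Of the 25-nucleotide words that start in the CDS, 90.2% in Selenok, 62.3% in Gpx4 and 21.9% in Selenot also occurred in transcripts of other genes, mainly their own pseudogenes, so the counts of these 3 genes are uncertain. The share was 0.495% in Gpx1 and 0 in the other 6 genes.

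**Figure D1:**
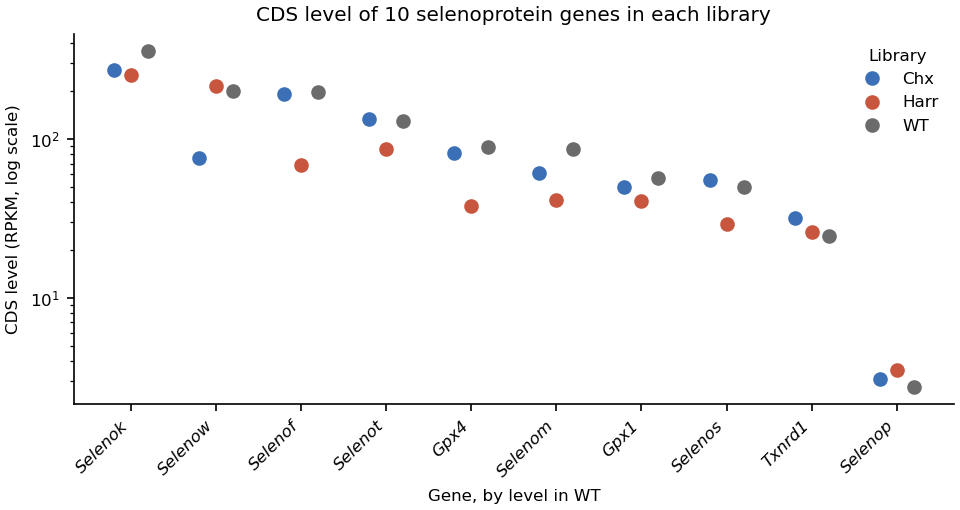
CDS level of each of the 10 genes in RPKM on a log axis, with 1 point per library and genes ordered by their level in WT. Selenok, at 360 RPKM in WT, and Selenop, at 2.75, mark the ends of the range, and the Selenow point of Chx (75.7 RPKM) lies below those of Harr and WT.

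The next comparison was of CDS level between libraries, as the log2 ratio of a gene's share of all CDS reads, for genes with 100 CDS reads or more. A gene was called when the ratio was at least 2-fold and its 95% counting interval did not include 1-fold. Selenow was the only member called, on this scale and over the whole CDS. Its CDS held 722 (Chx), 561 (Harr) and 1611 (WT) reads. The ratio of Chx over WT was −1.44 (SE 0.06) and that of Harr over Chx 2.06 (SE 0.08), while Harr over WT was 0.62 (SE 0.07). Over the whole CDS, Chx was thus the library that stood apart, in both directions. The Harr level of Selenow rests mainly on 1 segment of 54 nucleotides, with 470 of the 561 CDS reads (83.8%). That segment held 150 reads in Chx and 496 in WT. The later segments, of 75 and 84 nucleotides, held 276 and 221 reads in Chx, 34 and 56 in Harr, and 701 and 317 in WT. Whether Chx stands apart without the segment of 54 nucleotides was not tested. Of 11459 genes, 0.122% were called lower and 0.201% higher for Chx over WT, and Selenow was 1 of the 14 genes called lower. For Harr over Chx 4.63% of genes were called higher, Selenow among them, and 13.7% lower. For Harr over WT 5.3% were called higher and 14.3% lower, and no member was called.

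The other 9 members differed between Chx and WT by −0.54 (Selenom) to 0.34 (Txnrd1) on the log2 scale. Between Harr and WT they differed by −0.996 (SE 0.08), for Selenof, just short of the 2-fold limit, to 0.87 (SE 0.27), for Selenop, which rests on 39 CDS reads in Harr. Without the first coding segment Selenof was called lower, at −1.07 for Harr over Chx and −1.17 for Harr over WT, where 20.6% and 21.5% of all genes were. Scaled by the library totals, Selenof and Gpx4 were called lower in both Harr pairs and Selenom for Harr over WT, where 31.2% (Harr over Chx) and 29.0% (Harr over WT) of all genes were. The median of the 10 genes was −0.04 for Harr over WT, beside 0.00 for all 11459 genes and −0.59 for the 4813 genes with a CDS under 1200 nucleotides. Of the members, 9 of 10 have a CDS of that length.

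The central comparison was of read density in coding segments before and after the first UGA within a library. A coding segment is the part of the CDS in 1 exon, and the tables give 1 count per segment. The segment that holds the UGA was left out unless nothing else lay before it. In Selenok, Selenos and Txnrd1 the UGA is near the end, which left 4 nucleotides after it in Selenok and no segment in the others, so 7 members could be measured. The background is the same division of all genes with at least 2 coding segments and 100 CDS reads at the median UGA position of the 7 genes, which is 24.5% of the CDS. Density was at least 2-fold lower after the UGA in 5 of the 7 members in Chx, in 4 in Harr and in 5 in WT. In Chx it was in 6 of 7 with the most-read transcript, beside 39.5% of all genes. The same held with the UGA segment counted as before, beside 35.7%. It also held with segments before a junction shortened by 25 nucleotides, added after the data were seen, beside 44.7%. These settings left 4 in Harr and 5 in WT. Without the first coding segment, where 5 members kept a value, the counts were 2, 2 and 3, beside 34.7%, 20.9% and 38.2% of all genes divided in that way. Gpx1 and Selenop then drop out by construction. In Selenot, Selenom and Selenow the UGA segment then stands for before, so these counts are no like-for-like check of the main ones. With all segments, of 10173 genes 39.1% were at least 2-fold lower after the common position in Chx, 36.5% in Harr and 36.0% in WT, so that the direction and a 2-fold size are common among all genes. Among genes with a CDS under 1200 nucleotides the shares were 30.1%, 57.5% and 22.4%. The median log2 ratio was −2.20 for the 7 members and −0.79 for all genes in Chx, −1.37 and −0.48 in Harr, and −2.13 and −0.69 in WT. In Chx 10% of all genes were below −1.78 and 5% below −2.12.

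Gpx1 had the lowest ratio in each library, by less than the counting error from Selenop in Harr and WT. Its CDS has 2 segments, and the UGA lies in the first, on chromosome 9 at 108339451 to 108339453 of mm10, so that the first segment of 246 nucleotides stands for before although its last 105 nucleotides follow the UGA. The first segment held 1000 (Chx), 230 (Harr) and 936 (WT) reads, and the second, of 360 nucleotides, held 73, 12 and 102. The first segment is the shorter, yet it held 93.2%, 95.04% and 90.2% of the CDS reads. The log2 ratio was −4.32 (SE 0.17) in Chx, −4.75 (SE 0.42) in Harr and −3.74 (SE 0.15) in WT, which is 19.9, 27.0 and 13.4 times lower after than before.

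Gpx1 also allowed a closer look, because other annotated transcripts of the gene end or begin inside its first segment, and differences between their counts divide it into 3 parts. The first 108 nucleotides held 595 (Chx), 210 (Harr) and 600 (WT) reads. The next 60 nucleotides, with the UGA in their middle, held 382, 17 and 319 reads. The last 78 nucleotides, all after the UGA, held 23, 3 and 17 reads. Reads per nucleotide therefore stood at 5.51, 6.37 and 0.295 along the 3 parts in Chx and at 5.56, 5.32 and 0.218 in WT, and the second segment continued at 0.203 and 0.283. In Harr the middle part was already low, at 0.283 against 1.94 in the first part. The density of the last part was 7.25% of that of the whole segment in Chx, 4.11% in Harr and 5.73% in WT. Ends of this length (61 to 90 nucleotides before the next exon) over 1275 segments of all genes held 83.0%, 79.6% and 81.4%.

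**Figure D2:**
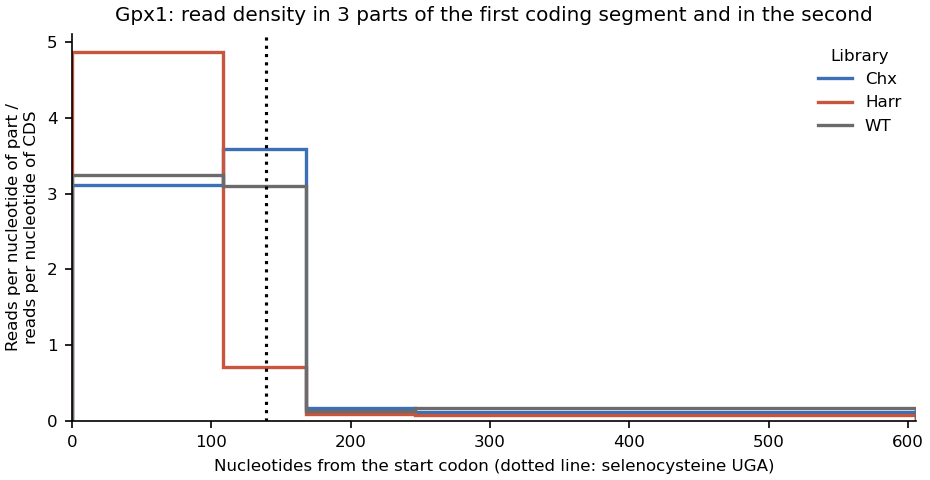
Read density along the Gpx1 CDS, with nucleotides from the start codon on the x axis and reads per nucleotide of each part relative to the whole CDS of the same library on the y axis. In Chx and WT the density holds at 3 to 4 times the CDS mean through the part with the UGA (dotted line) and then drops in the 78 nucleotides after it, while in Harr it is high in the first 108 nucleotides only.

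That check against all genes matters because reads were counted at their 5′ end and few were counted just before an exon junction. Over 569 segments the last 16 to 30 nucleotides before the next exon had 15.3% (Chx), 9.28% (Harr) and 12.3% (WT) of the segment's density. Inner coding segments of 21 to 30 nucleotides accordingly had 17.1%, 20.0% and 17.5% of the density of their CDS, and those of 101 to 200 nucleotides 100.3%, 88.5% and 100.2%. Segments of 31 to 40 nucleotides had 50.5% and 53.4% in Chx and WT but 118% in Harr, the highest of the length classes in that library. Segments under 40 nucleotides in the comparisons below are subject to this.

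Selenof has its UGA at codon 93, in the third of 5 segments. The 2 segments before it, of 243 nucleotides together, held 2780 (Chx), 222 (Harr) and 2319 (WT) reads, and the 2 after it, of 182 nucleotides, held 245, 64 and 259. The log2 ratio was −3.08 (SE 0.10), −1.37 (SE 0.20) and −2.74 (SE 0.09). Chx and WT were close to each other, and Harr was nearer to 0. Inside the UGA segment the 36 nucleotides up to the end of the UGA held 302, 42 and 313 reads, and the 28 nucleotides after it 18, 1 and 11. Those last 28 nucleotides had 12.9%, 5.32% and 7.76% of the density of the segment. The values just given for ends of 16 to 30 nucleotides are low too, but come from longer segments than this one of 64 nucleotides. The part of the UGA in the drop inside this segment was not tested. The last segment, of 132 nucleotides and free of a following junction, held 206, 49 and 197 reads.

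Selenot has its UGA at codon 49, near the start of its second segment. The first segment, of 137 nucleotides, held 1607 (Chx), 178 (Harr) and 1243 (WT) reads. The last 3 segments, of 340 nucleotides, held 1009, 263 and 899. The log2 ratio was −1.98 (SE 0.06) in Chx, −0.75 (SE 0.14) in Harr and −1.78 (SE 0.06) in WT. The UGA segment itself, of which all but the first 7 nucleotides are at or after the UGA, held 195, 53 and 164 reads in 111 nucleotides. Its density was below that of the segments that follow it, and taking it in place of the first segment as before reversed the sign, to 0.75, 0.69 and 0.84. The contrast in Selenot in Chx and WT is therefore between the first segment and all the others. In Harr the third segment, at 1.14 reads per nucleotide, was close to the first, at 1.30, and the other 3 had 0.477 to 0.568.

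Selenom has its UGA at codon 48, in a second segment of 36 nucleotides. The first segment held 612 (Chx), 114 (Harr) and 686 (WT) reads in 129 nucleotides. The 3 segments after the UGA held 281, 33 and 331 reads in 273 nucleotides. The log2 ratio was −2.20 (SE 0.10), −2.85 (SE 0.28) and −2.13 (SE 0.10), and all 3 libraries were below the quartile range of all genes. The shortest of the later segments has 35 nucleotides, and over segments of at least 60 nucleotides the values were −2.09, −2.70 and −2.05. The UGA segment had 1.61, 0.806 and 3.39 reads per nucleotide, and the segments after it 1.03, 0.121 and 1.21. With the UGA segment as before, as without the first segment, density after it was thus less than 2-fold lower in Chx.

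Selenop has its first UGA in the first segment, which held 91 (Chx), 30 (Harr) and 69 (WT) reads in 203 nucleotides. The 3 later segments, of 940 nucleotides and with the other 9 UGA codons, held 35, 9 and 26 reads. The log2 ratio was −3.58 (SE 0.29), −3.89 (SE 0.54) and −3.60 (SE 0.33). The last segment, which holds those 9 codons in 609 nucleotides, had 20, 3 and 23 reads. The middle segments, of 213 and 118 nucleotides and without a UGA, had 12 and 3 reads in Chx and 2 and 1 in WT, so that the low density began before the second UGA codon. Selenop is the least deeply counted of the 7 genes, and its intervals are the widest among those with reads on both sides.

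Gpx4 depended on the transcript. The longest transcript opens with a segment of 252 nucleotides that held 26 (Chx), 9 (Harr) and 18 (WT) reads, and with it the log2 ratio was 0.47 (SE 0.10), 1.84 (SE 0.28) and 0.33 (SE 0.09). The transcript with the most reads starts with another first segment, of 84 nucleotides, which held 298, 77 and 130 reads and puts the UGA at codon 73. With that transcript the ratio was −1.27 (SE 0.09), −0.64 (SE 0.20) and −0.89 (SE 0.08). The direction thus turned with the choice of transcript, and the second set lay within the quartile range of all genes. In both transcripts the segment with the UGA held the most reads, 1442, 143 and 942 in 145 nucleotides, and the next, of 152 nucleotides, held 301, 48 and 268. The part after the UGA also includes a segment of 25 nucleotides with 1, 0 and 1 reads, and the last segment, of 33 nucleotides, which held 16 (Chx), 41 (Harr) and 198 (WT) reads. Much of this sequence is shared with a pseudogene, as given above.

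In Selenow the ratio was above 0, as in the longest transcript of Gpx4. Its UGA is at codon 13, and the only segment before it has 29 nucleotides, all of them close to an exon junction. This segment held 61 (Chx), 0 (Harr) and 32 (WT) reads, while the 3 segments after the UGA, of 213 nucleotides, held 647, 560 and 1514. The log2 ratio was 0.52 (SE 0.19) in Chx and 2.67 (SE 0.26) in WT, and with 0 reads before the UGA in Harr (at most 3 counts) density there was at least 25.4-fold higher after it. When every segment followed by another was shortened by 25 nucleotides, an alternative added after the data were seen, the value was −1.95 in Chx and 0.19 in WT, so no direction can be read for Selenow.

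**Figure D3:**
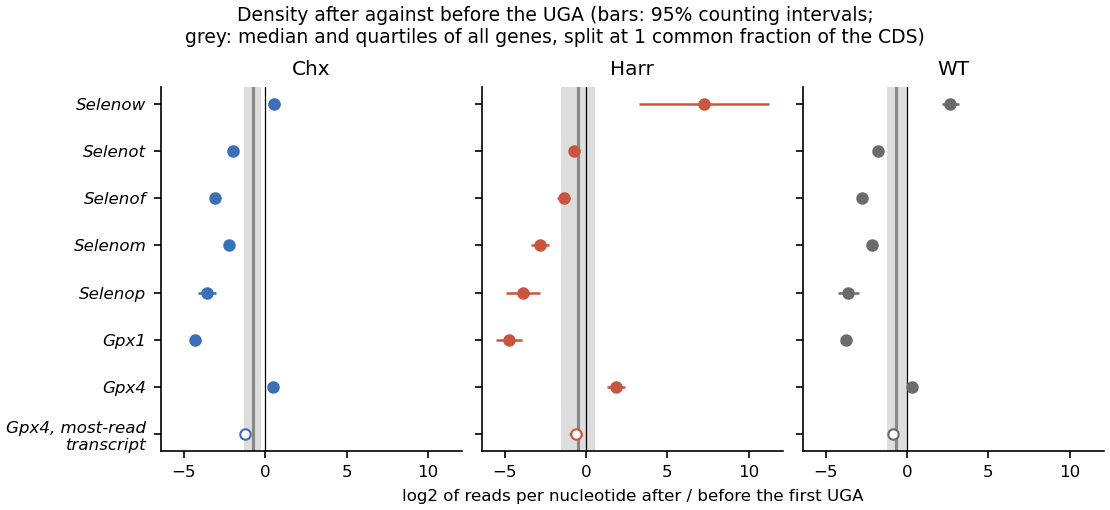
The log2 ratio of reads per nucleotide after over before the first UGA for the 7 measurable members, 1 panel per library, with 95% counting intervals, the median and quartiles of 10173 genes in grey, and Gpx4 also for its most-read transcript (open circles). Selenot, Selenof, Selenom, Selenop and Gpx1 lie left of the grey band in Chx and WT (−1.78 or lower), and Selenow and the longest Gpx4 transcript lie right of 0. The Harr point of Selenow has 0 reads before the UGA and depends on the count of 0.5 added to each side.

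The 3 members with the UGA at the end served as a comparison, and were divided at the same 24.5% of the CDS, where no UGA lies. In Selenos the log2 ratio was −0.51 (SE 0.12) in Chx, −2.16 (SE 0.26) in Harr and 0.02 (SE 0.16) in WT. In Txnrd1 it was 1.13 (SE 0.10), −0.02 (SE 0.16) and 1.49 (SE 0.13), with a first segment of 306 nucleotides that held only 4, 0 and 0 reads. On its most-read transcript, which lacks that segment, Txnrd1 had −0.59 (SE 0.07), −0.41 (SE 0.16) and −0.58 (SE 0.09), so that the direction turned in Chx and WT with the transcript. In Selenok the first segment of 19 nucleotides had 0 reads in all libraries, so it gave no ratio. Its 3 main segments, of 84 to 91 nucleotides, held 1069, 873 and 838 reads in Chx and 1275, 996 and 831 in WT, and 195, 219 and 290 in Harr. Density thus fell to the segment with the UGA in Chx and WT, from 14.0 to 9.55 reads per nucleotide in WT, and rose in Harr, from 2.14 to 3.33. The values of Selenos in Chx and WT, and those of Txnrd1 on either transcript, were above the medians of all genes (−0.79 and −0.69). In Txnrd1 the last segment, with the UGA near its end, held 230, 89 and 112 reads in 69 nucleotides, the highest density of its segments in Chx and Harr. In Selenos the last 86 nucleotides held 171, 18 and 132 reads, a lower density than in its second segment in all 3 libraries.

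**Figure D4:**
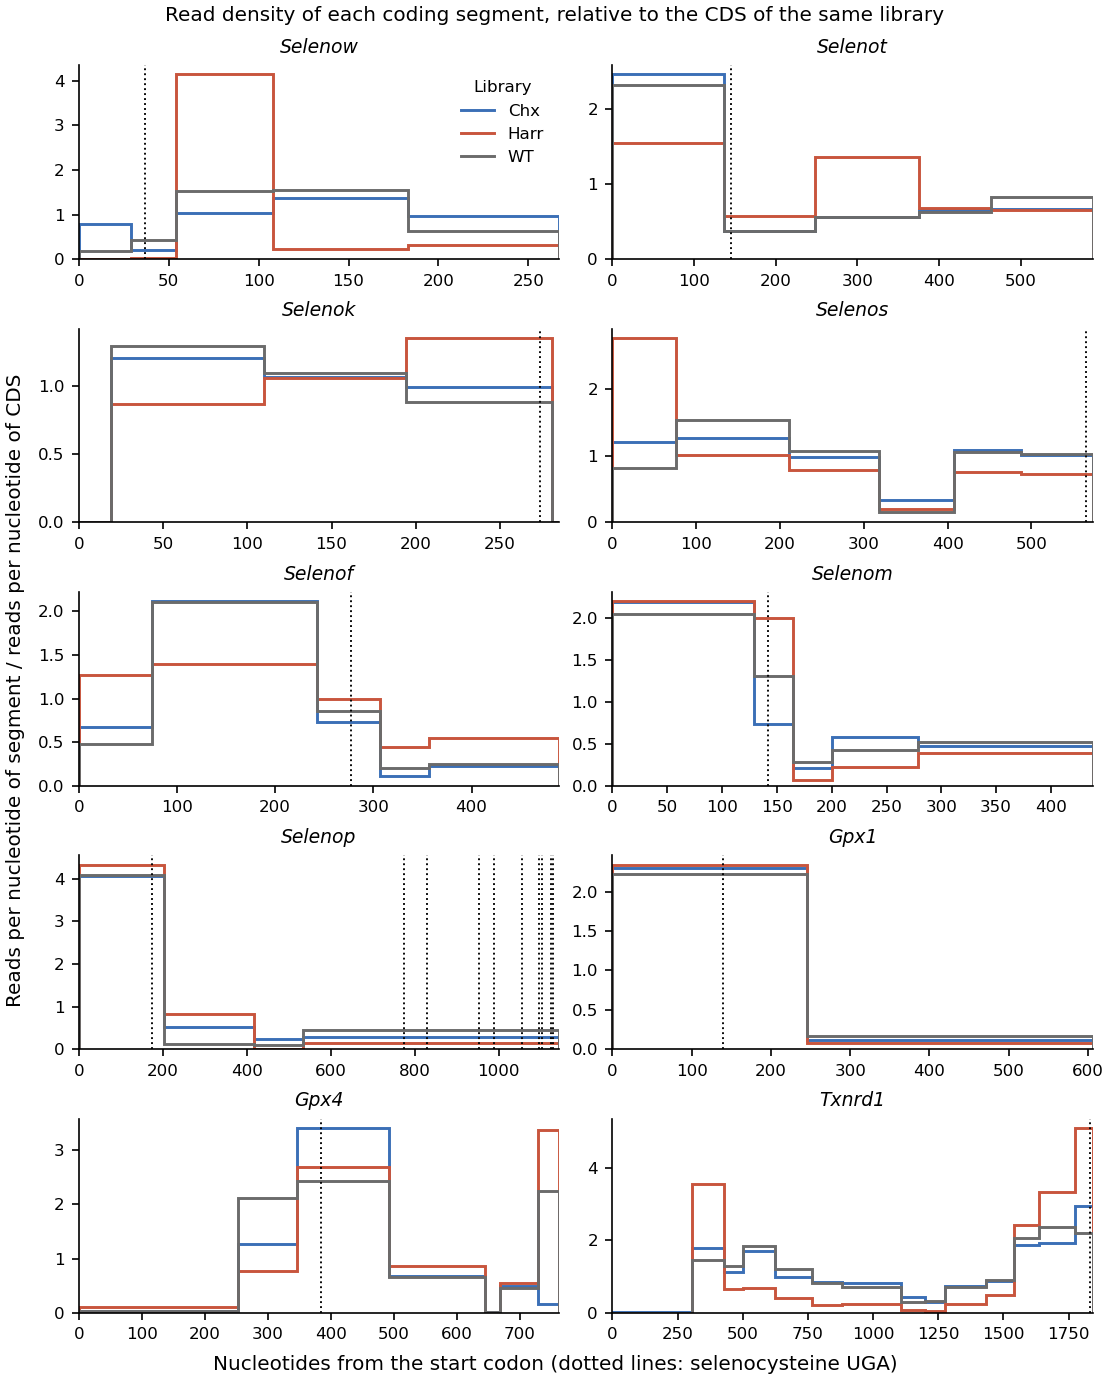
Reads per nucleotide of each coding segment relative to the whole CDS of the same library (y axis) against nucleotides from the start codon (x axis) for the 10 genes, 1 line per library, with dotted lines at the selenocysteine codons. Density falls across the UGA in Selenof, Selenom, Selenop and Gpx1, is high in the first segment of Selenot, differs less between the 3 main segments of Selenok, and peaks in the third segment of Selenow in Harr.

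The same division in other selenoprotein genes, a list of 14, gave 3 genes with a measurable ratio and at least 100 reads on the 2 sides. Selenoh, a nucleolar redox protein, held 184, 66 and 178 reads before the UGA and 31, 6 and 44 after it, in 104 and 101 nucleotides, and its log2 ratio was −2.51 (SE 0.28) in Chx, −3.31 (SE 0.59) in Harr and −1.96 (SE 0.24) in WT. Selenon, a protein of the endoplasmic reticulum linked to muscle disease, had −2.33 (SE 0.41), −0.38 (SE 0.55) and −2.53 (SE 0.51). Msrb1, a methionine sulfoxide reductase, had 0 reads in Chx and WT in the 32 nucleotides after its UGA segment, where 3 counts would make the density at least 5.59-fold and 5.23-fold lower, and 1 read in Harr. Of the relatives that lack selenocysteine, Gpx8, a homolog of Gpx1 in the endoplasmic reticulum, divided at the fraction of the Gpx1 UGA, had −1.66 (SE 0.27), −1.98 (SE 0.84) and −1.87 (SE 0.24), against −4.32, −4.75 and −3.74 in Gpx1. Sephs1, a relative of selenophosphate synthetase without selenocysteine, had −1.04 (SE 0.14), −2.21 (SE 0.37) and −0.94 (SE 0.16).

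Between libraries, the lengths of the segments cancel, and the change of the after:before ratio was taken as a log2 odds ratio. Selenow, Selenot, Selenof and Gpx4 were called higher in Harr than in Chx and in Harr than in WT, which is 4 of 7, where 26.5% and 26.2% of all genes were called higher. With the most-read transcript Gpx4 was not called, at 0.63 (SE 0.22) and 0.26 (SE 0.22), which leaves 3 members, and without its first segment Selenot was not called either, at −0.068 and −0.15. With the UGA segment counted as before, Selenot (0.83) and Gpx4 (0.64) were not called for Harr over WT. The change of Harr over Chx was 1.23 (SE 0.15) in Selenot, 1.72 (SE 0.23) in Selenof and 1.36 (SE 0.30) in the longest transcript of Gpx4, and that of Selenow rests on 0 reads before the UGA in Harr. No member was called lower for Harr over Chx, where 17.8% of genes were, and Gpx1 was called lower for Harr over WT at −1.01 (SE 0.45), where 21.4% of genes were, a call that a pseudocount of 5 ended. Selenom had −0.65 (SE 0.30) and −0.72 (SE 0.30), and Selenop −0.32 (SE 0.61) and −0.29 (SE 0.63). Without the first coding segment Selenom was called lower in both Harr pairs, beside 7.08% and 7.97% of all genes. For Chx over WT 1.09% of genes were called higher and 5.47% lower, and Selenow was the only member called, at −2.15 (SE 0.32). That call rests on the segment of 29 nucleotides: with the UGA segment, of 25 nucleotides, counted as before the value was −0.86 and not called, and without the first segment it was 0.95. The 6 other members differed between Chx and WT by −0.58 (Gpx1) to 0.15 (Gpx4). The 2 Harr comparisons share the Harr library and are not independent.

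Within Selenow the libraries placed their reads differently. The third segment, 54 nucleotides on chromosome 7 at 15920305 to 15920358, held 150 (Chx), 470 (Harr) and 496 (WT) reads, or 20.8%, 83.8% and 30.8% of the CDS reads. The fourth, of 75 nucleotides, held 276, 34 and 701, and the fifth, of 84 nucleotides, 221, 56 and 317. Reads in Harr were thus concentrated in 1 segment just after the UGA segment. Over all genes, inner segments of 41 to 60 nucleotides had 66.7% of the density of their CDS in Harr. Reads in Harr also lay toward the 5′ end of segments, where the first 15 nucleotides after a junction had 297% of the density of the segment, against 127% in Chx and 150% in WT, and the part of this in Selenow was not tested. Every segment but the first held fewer reads in Chx than in WT, although Chx was the deeper library. No 25-nucleotide word of the Selenow transcript occurred in another gene's transcripts.

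Reads upstream of the start codon were compared next, as the log2 change of the 5′ UTR reads over the CDS reads, since harringtonine holds ribosomes at start codons and a ribosome on the first codon has its read counted in the 5′ UTR. At least 10 reads in each region were found for 8 members, all but Gpx4 and Txnrd1. In Harr over WT all 8 were called higher, by 1.89 (Selenow) to 4.47 (Selenos), beside 94.3% of all genes. In Harr over Chx 7 of the 8 were called higher, beside 89.4%, and the exception was Selenow at −0.38 (SE 0.09). In Chx over WT 5 were called higher (Selenow, Selenot, Selenok, Selenom and Gpx1), beside 30.4%. The median of the members was 3.12 for Harr over WT, where all genes had 3.23, then 2.16 and 2.46 for Harr over Chx, and 1.13 and 0.67 for Chx over WT.

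The 5′ UTR of Selenow, 122 nucleotides, held 2800 (Chx), 1675 (Harr) and 1295 (WT) reads. These were 75.9% of the reads of the transcript in Chx, 71.4% in Harr and 42.2% in WT (Wilson 95% intervals 74.5 to 77.3, 69.5 to 73.2 and 40.5 to 44.0), the highest of the 10 genes in Chx and WT. Selenow was the only member with more reads in the 5′ UTR than in the CDS in Chx. Per nucleotide, 4 members were denser in the 5′ UTR than in the CDS in Chx, Selenow by 8.49 times, Selenot by 2.79, Selenos by 1.07 and Selenom by 1.05. Selenot came next, with 1348, 1566 and 469 reads in 101 nucleotides, or 32.2%, 74.96% and 16.6% of its reads. Nearly all of them, 1318, 1547 and 458, fell in the last 39 nucleotides before the start codon. The log2 change of Selenot was 2.72 (SE 0.09) for Harr over Chx and 3.96 (SE 0.10) for Harr over WT. In Selenos all 137, 243 and 57 reads of the 5′ UTR fell in the 27 nucleotides before the start codon, and its change was 3.61 (SE 0.20) and 4.47 (SE 0.24).

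Selenom held 178, 147 and 100 reads in its 5′ UTR, or 15.7%, 45.5% and 8.07% of the transcript's reads. Selenok held 120, 159 and 48, of which 84, 97 and 24 lay within 82 nucleotides of the start codon. Gpx1 held 108, 55 and 46, of which 98, 54 and 44 lay within 70 nucleotides, and had the smallest change of Harr over Chx after Selenow, at 1.18 (SE 0.26). Selenof held 66, 29 and 32, or 1.91%, 7.44% and 1.08%. Selenop had only 12, 11 and 4, all in the 13 nucleotides before the start codon, and its 5′ UTR overlaps the CDS of another of its transcripts. The longest transcripts of Gpx4 and Txnrd1 had at most 2 reads in a 5′ UTR in any library. Their most-read transcripts had 53, 54 and 12 reads (Gpx4) and 245, 245 and 106 reads (Txnrd1), with a change of 2.87 (SE 0.29) and 2.25 (SE 0.15) for Harr over Chx.

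**Figure D5:**
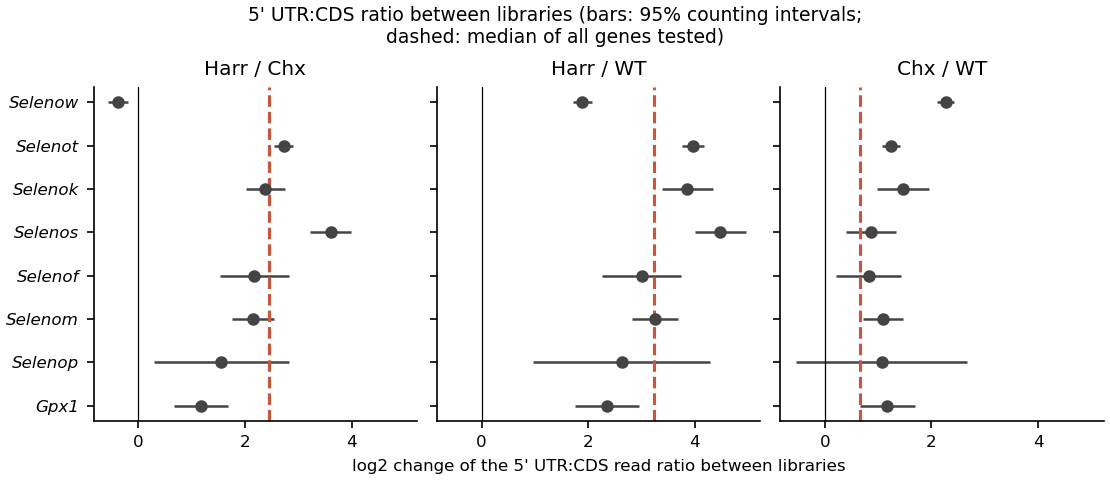
The log2 change of the 5′ UTR to CDS read ratio between libraries for 8 members, 1 panel per pair of libraries, with 95% counting intervals and a dashed line at the median of all genes tested. Selenow is the only gene left of 0 for Harr over Chx (−0.38) and has the highest value for Chx over WT (2.27).

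The 3′ UTR holds the SECIS element and has no annotated translation. The members held few reads there. The density of the 3′ UTR was at most 1.36% of that of the CDS in Chx in the 9 genes other than Selenow. Selenos reached 21.6% in Harr, with 34 reads, and 3.14% in WT. In Selenow the 3′ UTR held 166, 110 and 163 reads, all in an exon of 332 nucleotides that follows the first 15 nucleotides after the stop codon, where there were none, or 17.7%, 15.1% and 7.79% of the CDS density. Of the 6 members with at least 10 reads in each region, 5 were called higher for Harr over Chx (Selenot, Selenok, Selenos, Selenof and Txnrd1), beside 86.5% of all genes, and 4 for Harr over WT, beside 79.7%. For Chx over WT Selenow was called higher at 1.18 (SE 0.17), beside 0.741%, and Selenos and Txnrd1 lower at −2.03 (SE 0.57) and −2.94 (SE 1.00), beside 38.9%. The Selenow value repeats the lower CDS count in Chx (722 against 1611 reads), since its 3′ UTR reads were nearly equal, and that count also enters its 5′ UTR value. No read was counted in the 797 nucleotides of the Selenop 3′ UTR in any library, nor in Gpx4 outside Harr, where there was 1.

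The genes that make and use selenocysteine were measured beside their products. All 15 genes of the selenocysteine machinery and selenium supply passed 100 CDS reads. Their medians of CDS level were −0.23 for Harr over Chx, −0.14 for Harr over WT and 0.09 for Chx over WT on the log2 scale, beside −0.05, 0.00 and 0.03 for all genes, and 10, 9 and 7 of the genes respectively were below 0. For Harr over Chx 2 of the 15 were called lower, beside 13.7% of all genes, Rpl30 at −3.02 (SE 0.28) and Eif4a3 at −1.08 (SE 0.11), and 2 for Harr over WT, beside 14.3%, Rpl30 at −2.54 (SE 0.28) and Trnau1ap at −1.09 (SE 0.27). Rpl30 is a ribosomal protein and Eif4a3 a component of the exon junction complex, both reported to bind SECIS elements, and Trnau1ap associates with the selenocysteine tRNA. None was called for Chx over WT. Ncl (nucleolin), Sars (the seryl-tRNA synthetase that charges the selenocysteine tRNA) and Eif4a3 had the most CDS reads, with 15422, 7424 and 2013 in Chx. The dedicated factors were lower. On the RPKM scale in WT, Eefsec had 7.10, Secisbp2 2.43, Secisbp2l 6.03, Sepsecs 5.26, Pstk 6.10 and Sephs2, itself a selenoprotein, 16.6. Lrp8, the receptor that takes up the Selenop protein in neurons, had 6.81 RPKM in WT.

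For the 5′ UTR to CDS ratio, 10 of the 12 machinery genes tested were called higher for Harr over Chx (Sephs2, Secisbp2, Eefsec, Pstk, Sars, Sephs1, Trnau1ap, Rpl30, Ncl and Eif4a3), those and Secisbp2l for Harr over WT, and 6 of 12 for Chx over WT, beside 30.4% of all genes (Sephs2, Secisbp2, Secisbp2l, Sephs1, Trnau1ap and Ncl). The shares of all genes for the Harr pairs are 89.4% and 94.3%. Secisbp2, with 30, 18 and 1 reads in its 5′ UTR, had the highest Chx over WT value of them, 3.82. Lrp8 was the one gene not called in any of the 3 pairs, at 0.76, 0.83 and 0.07. For the 3′ UTR to CDS ratio, Sars, Sephs1, Ncl and Eif4a3 were called higher for Harr over Chx, 4 of 4 tested beside 86.5% of all genes. These and Scly were called higher for Harr over WT, 5 of 5 beside 79.7%, and Sars and Ncl lower for Chx over WT, 2 of 3 beside 38.9%. Of the 14 other selenoproteins 9 passed 100 CDS reads. Selenoi, a phospholipid synthesis enzyme, was the highest of them at 78.6, 59.0 and 73.1 RPKM. Sephs2 and Txnrd2, the mitochondrial thioredoxin reductase, had the next most CDS reads, 789 and 506 in Chx, and 5 genes (Gpx2, Dio1, Dio2, Dio3 and Selenov) had at most 25 CDS reads in any library. Gpx3, the secreted glutathione peroxidase, was the only one called for CDS level, lower in Harr at −1.71 (SE 0.79) against Chx and −2.02 (SE 0.79) against WT, on 3 reads in Harr, which is 1 of 9 beside 13.7% and 14.3% of all genes. The 5′ UTR to CDS ratio was called higher in Harr than in both other libraries for Selenoh, Selenoi, Msrb1 and Sephs2, in Harr over Chx also for Selenoo, in Harr over WT also for Txnrd2, and in Chx over WT for Txnrd3 and Sephs2. These were 5 of 7 tested for Harr over Chx, 5 of 6 for Harr over WT and 2 of 7 for Chx over WT. The shares of all genes are 89.4%, 94.3% and 30.4%. Txnrd3 was below 0 in both Harr pairs, at −1.55 (SE 0.96) and −0.55 (SE 1.01), and not called. The 3′ UTR to CDS ratio was called higher in Harr than in both others for Txnrd2 and Selenoi, 2 of 3 tested beside 86.5% and 79.7%. It was called lower in Chx than in WT for Selenoi, 1 of 2 beside 38.9%. Of the 7 homologs without selenocysteine, Sephs1, Gpx8 and Msrb2 had the most CDS reads, 547, 116 and 72 in Chx. Gpx8 was the only one called for CDS level, at −1.44 (SE 0.42) for Harr over WT, 1 of 3 tested beside the same 14.3%. All 3 were called higher for the 5′ UTR to CDS ratio in Harr over Chx and Harr over WT, beside 89.4% and 94.3%.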

How the data were processed

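The 3 libraries, 1 per treatment, were assigned to groups from the title and the treatment label. The description labels conflict with these: they name input or pulldown fractions of subcellular regions, and were not used. Per the file headers the authors counted reads with Plastid at the 5′ end (offset 0, reads of 25 to 100 nucleotides) on mm10 after removing ribosomal reads and duplicates. Of aligners, the methods name TopHat on the transcriptome, with multiple hits allowed, for finding reading frames, and Rsubread on mm10 for counting with Plastid in other libraries. They also name STAR, for the transcript alignments behind quality control plots. Which of them made the alignments counted here is not given in the sources used here. The deposited tables hold whole counts per exon segment of each transcript, the coverage signal (count per nucleotide) and RPKM. Counts were used, and RPKM was recomputed from them with the header totals. Counting was by strand.

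Transcripts were matched to GENCODE M21, on the same build (99.0% of 142446 identifiers with their version), which also gave the selenocysteine codons. The longest transcript with all 3 regions was taken per gene. Ratios carry a pseudocount of 0.5 and a standard error from counts. At least 100 CDS reads over the 3 libraries were required for levels, 10 reads in each region of a pair for UTR ratios, and 30 nucleotides after the UGA for the before and after comparison, the last set after seeing the data. Parts of segments were obtained as differences between counts of overlapping segments. Calls need 2-fold and a 95% counting interval without 1-fold. Named were the 10 members and, from 3 lists (14 other selenoproteins, 15 genes of selenocysteine machinery and selenium supply, 7 homologs without selenocysteine), every gene called in a comparison between libraries and the 3 with the most CDS reads. Other genes of these lists that the text names were chosen after their values were seen. The members and lists were chosen with earlier results of these data known. Code was tested on simulated counts. Python 3.11.15, numpy 2.4.6 and pandas 2.3.3 were used.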

Additional observations from a re-analysis of the deposited data

How the results depend on the processing

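No paired analysis was possible because each treatment has 1 library, and no library could be left out. The after:before values depended on the transcript and on the first coding segment. With the most-read transcript the after:before log2 ratio of Gpx4 was −1.27 (Chx), −0.64 (Harr) and −0.89 (WT), and that of Txnrd1 at the common position, added after the data were seen, −0.59 (Chx) and −0.58 (WT). Without the first coding segment 5 members kept a value, the members at least 2-fold lower after the UGA were 2 (Chx), 2 (Harr) and 3 (WT), and 20.9% of all genes were in Harr. By construction Gpx1 and Selenop then have no value, and in Selenot, Selenom and Selenow the UGA segment stands for before. Selenot was then 0.75, 0.69 and 0.84, Gpx4 −1.29 (Chx) and −1.49 (WT), the change of Selenot −0.068 (Harr over Chx) and −0.15 (Harr over WT), and that of Selenow 0.95 (Chx over WT). Members called lower for that change were 1 (Selenom, Harr over Chx) and 0 (Chx over WT), and genes called were 7.08% (lower, Harr over Chx), 40.01% and 7.97% (higher and lower, Harr over WT) and 1.69% and 2.26% (Chx over WT). In CDS level without that segment, Gpx1 was −0.13 for Harr over Chx, 1 member was called lower for each Harr pair, and 20.6% of genes were called lower for Harr over Chx and 0.118% higher for Chx over WT. With the UGA segment counted as before, Gpx4 was −1.30 (Chx) and −0.60 (WT). For the change, 2 of 7 members were then called higher for Harr over WT, beside 29.2% of genes, and 0 lower for Chx over WT, beside 2.80%. Without the last segment Gpx4 was −0.14 in WT. Over segments of at least 60 nucleotides, added after the data were seen, 2 of 6 members were called higher for Harr over Chx, beside 28.4% of genes. None was called lower for Chx over WT, beside 4.39%. Selenow had no value there, and Gpx4 was at 0.68 for Harr over Chx. With lengths reduced by 25 nucleotides before a junction, also added, Selenow was −1.95 in Chx.

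Scaling by header totals gave −0.27 (Gpx1), −0.11 (Selenok) and −0.29 (Txnrd1) for Harr over Chx, 2 and 3 members called lower for Harr over Chx and Harr over WT, 0.559% and 0.681% of genes called higher and 31.2% and 29.0% lower. Size factors gave 0.131% called higher for Chx over WT. Without a minimum of reads 7.67% (Harr over Chx) and 8.06% (Harr over WT) of genes were called lower, and 0.452% higher and 0.606% lower for Chx over WT. A pseudocount of 5 left 0 members lower in the after:before change for Harr over WT, beside 24.4% of genes, and 0.349% of genes higher in the 3′ UTR ratio for Chx over WT. Over background genes with a CDS under 1200 nucleotides, 57.5% (Harr) and 22.4% (WT) were at least 2-fold lower. The causes were not tested except where named. Of all counts and shares 35 moved by more than 1.5 times and 221 did not. Of single values, 21 whose counting interval left out 0 changed sign, 80 others moved by more than that interval, not all of them given here, and 481 did not. Selenow kept its CDS calls for Chx over WT and Harr over Chx in every alternative tried. No alternative left out its segment of 54 nucleotides, which held 470 of its 561 CDS reads in Harr and 150 of 722 in Chx. Whether the Harr over Chx call holds without that segment was therefore not tested. Depth limits Selenop, with 39 CDS reads in Harr, and the 3′ UTR values of members other than Selenow.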
